A study of Mus musculus with 15 samples.

Results

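Serotonin synthesis, storage, uptake, breakdown and sensing in the mouse cecum were examined through 8 genes, chosen by their role and found by symbol among the 45808 gene rows of the cecal expression table. They are Tph1, Ddc, Slc18a1, Slc6a4, Maoa, Maob, Htr3a and Htr4. All 8 had a row, and all 8 were above 0 in at least 1 mouse.

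The ceca came from wild-type male C57BL/6 mice on normal chow, listed at an age of 20 weeks in the sample labels, which is above the age that the study's methods imply. The 7 AIMD mice (antibiotic-induced microbiome depletion) received ampicillin, vancomycin, metronidazole and neomycin with the antifungal amphotericin B by gavage over 30 days, and the 8 vehicle mice (vehicle-treated controls) received water on the same schedule. Each mouse gave 1 library of poly-A RNA from the emptied whole cecum. In this design, loss of bacteria and exposure to the drugs cannot be told apart, and mice were caged in small groups that the labels do not name.

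Serotonin of the gut is made mainly by enterochromaffin cells, the enteroendocrine cells that hydroxylate tryptophan with TPH1, decarboxylate the product with the DDC enzyme and load serotonin into granules with the vesicular transporter encoded by Slc18a1. Released serotonin acts on receptors of nerve endings, muscle and epithelium, among them the ion channel subunit encoded by Htr3a and the G-protein-coupled receptor encoded by Htr4. The plasma membrane transporter encoded by Slc6a4 takes it up into the surrounding epithelium, where monoamine oxidases, encoded by Maoa and Maob, break it down.

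Maoa and Ddc passed the test in opposite directions, as described with their values, and the reference sequence around their starts is shown because they are the 2 called genes with the most reads. The sequences are RefSeq promoters on GRCm38.p6, each with 250 bases before and 50 after an annotated start, written 5′ to 3′ on the gene's strand. Capitals mark a match on either strand to one of the motifs searched, namely the GC box GGGCGG, the E-box CACGTG, the TATA box TATAAA and the cyclic AMP element TGACGTCA. CCGCCC is the GC box and TTTATA the TATA box read on the other strand. Maoa has 1 start in this set, at chrX:16619448-16619747 on the plus strand, and Ddc has 2, at chr11:11898095-11898394 and chr11:11890359-11890658 on the minus strand.
Maoa: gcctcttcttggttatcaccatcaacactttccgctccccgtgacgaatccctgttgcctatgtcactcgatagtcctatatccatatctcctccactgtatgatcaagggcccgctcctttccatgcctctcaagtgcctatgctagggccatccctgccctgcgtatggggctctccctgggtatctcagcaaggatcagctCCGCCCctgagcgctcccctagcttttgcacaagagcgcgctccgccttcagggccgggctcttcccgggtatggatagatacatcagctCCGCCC
Ddc start 1: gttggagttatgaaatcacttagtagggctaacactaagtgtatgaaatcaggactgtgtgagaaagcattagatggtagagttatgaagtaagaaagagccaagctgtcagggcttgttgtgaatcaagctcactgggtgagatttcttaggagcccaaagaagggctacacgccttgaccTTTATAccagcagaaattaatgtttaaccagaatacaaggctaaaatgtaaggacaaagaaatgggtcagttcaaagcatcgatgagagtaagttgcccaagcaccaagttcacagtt
Ddc start 2: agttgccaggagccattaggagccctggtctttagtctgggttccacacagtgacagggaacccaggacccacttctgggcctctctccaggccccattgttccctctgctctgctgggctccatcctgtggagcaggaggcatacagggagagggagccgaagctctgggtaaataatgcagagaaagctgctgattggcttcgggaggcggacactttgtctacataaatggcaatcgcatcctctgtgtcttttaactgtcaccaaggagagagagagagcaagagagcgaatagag

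The Maoa window holds 2 GC boxes and none of the other motifs, and 35.7% of the 32851 RefSeq promoters hold a GC box. Ddc start 1 holds 1 TATA box, which 13.6% of promoters hold, and start 2 holds none of the motifs. None of the 3 windows has an E-box, which 7.15% of promoters have, or a cyclic AMP element, which 1.79% have. The Maoa window has 14 CG steps, and the Ddc windows have 2 and 5, beside a median of 7 over all promoters. The FPKM are sums over a gene, so they do not separate the 2 starts of Ddc.

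Expression is given as FPKM (the reads on a gene, per length of the gene and per depth of the library), divided by a size factor of 1.0101 to 1.0104. Fold changes are log2 ratios of FPKM + 0.5, AIMD over vehicle, from limma with Benjamini-Hochberg adjustment over 11971 genes and a threshold of 0.05, and they understate the change of low genes. A gene was tested if its FPKM was at least 0.5 in at least 7 mice. Of the 8 genes, 7 passed this filter and Slc18a1 did not. Maoa and Htr4 were higher and Ddc and Htr3a lower in AIMD mice, while Tph1, Slc6a4 and Maob did not pass the test. Of all tested genes, 36.0% were called, 19.4% higher and 16.6% lower. Nothing is read from the 4 calls beside this share, because Htr4 passed the filter through all 7 AIMD mice and 1 vehicle mouse and Htr3a through 6 vehicle mice and 1 AIMD mouse. The median log2 fold change of the 7 genes was -0.09, and that of all tested genes was 0.01.

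The libraries held 8679672 to 18108573 reads on genes in AIMD mice and 4372409 to 14405935 in vehicle mice, as recovered from the steps of the FPKM values, with vehicle replicate 8 the least deep. Vehicle replicate 8 also had the highest summed FPKM of 6 enteric neuron markers and of 6 smooth muscle markers. The mice lay in 2 clusters of circadian clock genes, with 3 AIMD and 4 vehicle mice at a clock score above 0 and 4 and 4 below it. The score is the mean level of Arntl, Npas2, Clock and Nfil3 minus that of the genes that run opposite to them, centred within each treatment. Of these, 4 genes were tested in the first list and 9 of 10 in the second, and the 1 that passed was Npas2 (log2 fold change -0.52, limma adjusted p = 0.0198). The labels give no time of sacrifice. In the whole tissue, fewer cells of a type and less RNA per cell cannot be told apart.

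**Figure D1:**
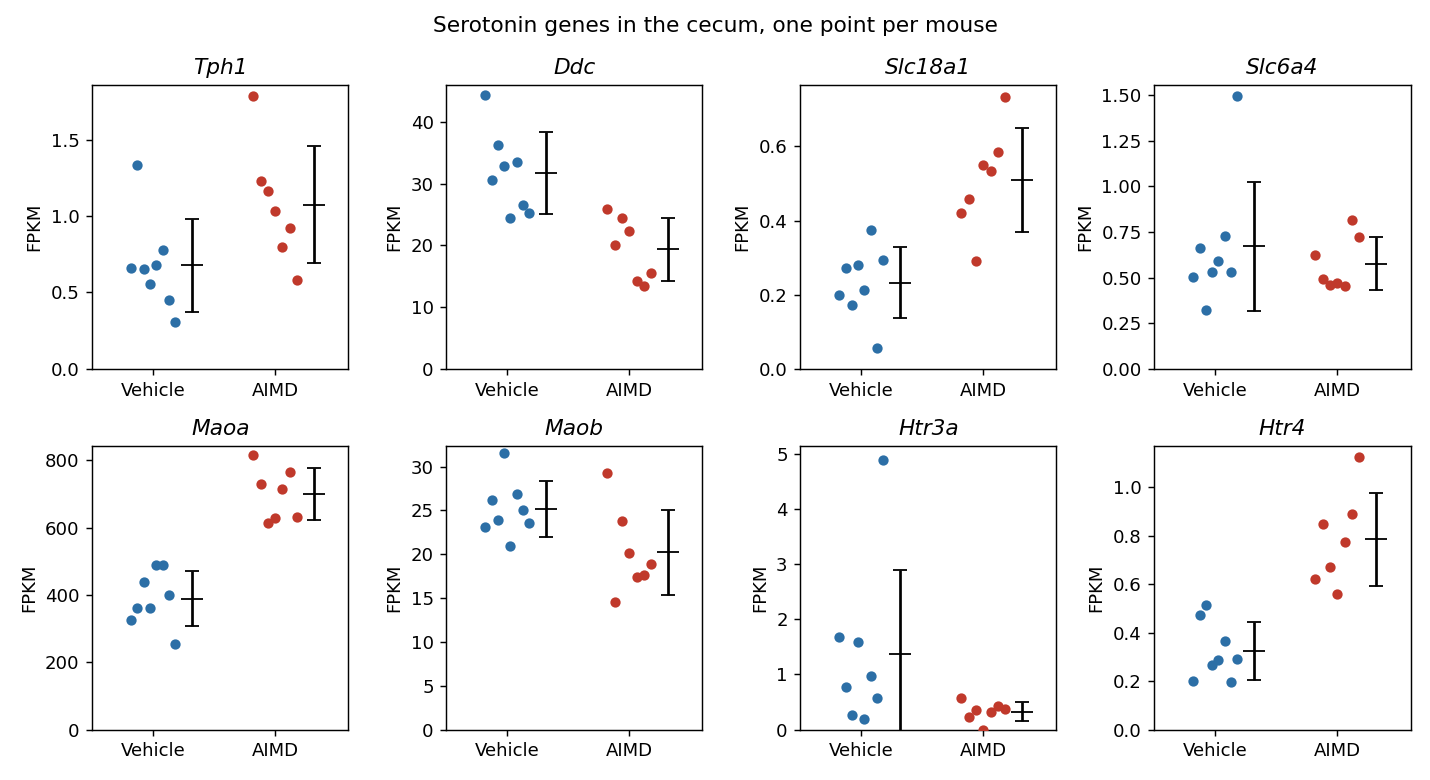
FPKM of each of the 8 serotonin genes (y axis, a separate linear scale from 0 for each gene) in the 8 vehicle mice (blue) and the 7 AIMD mice (red), 1 point per mouse, in order of replicate number from left to right, with the group mean and SD in black. The groups are apart for Maoa and Htr4 and overlap for the other 6 genes, and vehicle replicate 8 is the highest point for Slc6a4, at 1.498, and for Htr3a, at 4.89.

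Tph1 encodes tryptophan hydroxylase 1, the rate-limiting enzyme of serotonin synthesis outside the brain, and is found on chromosome 7 (minus strand) from 46644641 to 46672537 (GRCm38, GENCODE M21). In AIMD mice its lowest, median and highest FPKM were 0.583, 1.03 and 1.78, and in vehicle mice they were 0.307, 0.656 and 1.33. AIMD replicate 1 alone stood above every vehicle mouse, and 3 vehicle mice lay below every AIMD mouse, so the groups overlapped. The means were 1.07 ± 0.382 (SD, n = 7) and 0.677 ± 0.303 (SD, n = 8), giving a log2 fold change of 0.42 (standard error, SE, 0.17, 95% interval 0.06 to 0.79) that did not pass the test (limma adjusted p = 0.0669). These values rest on 25 to 116 reads in AIMD mice and 5 to 67 in vehicle mice.

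The call for Tph1 turned on single mice and on the clock genes. It passed without AIMD replicate 7 (0.51, limma adjusted p = 0.0336) and without vehicle replicate 2 (0.52, limma adjusted p = 0.0176), and the adjusted p reached 0.153 with another mouse left out. With the clock score as a covariate the adjusted p in limma was 0.0321. Within the mice of clock score above 0, mean FPKM were 1.39 in AIMD and 0.800 in vehicle mice, and within those below 0 they were 0.834 and 0.554. Both clusters thus had the higher mean in AIMD mice, and in both treatments the higher mean was in the cluster above 0, a split made after the data were seen and not tested.

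Tph2, which encodes the hydroxylase of neurons, was listed at 0 in all 15 mice. Of the 6 tested genes of the tetrahydrobiopterin cofactor that tryptophan hydroxylase needs, 2 rose and 4 did not pass, a share near the 36.0% called over all tested genes. Gch1, which encodes the first enzyme of cofactor synthesis, rose from 5.34 ± 1.14 (SD, n = 8) to 8.79 ± 2.07 (SD, n = 7), giving a log2 fold change of 0.66 (limma adjusted p = 0.00407). Gchfr, which encodes the protein that ties this enzyme's activity to its end product, had a log2 fold change of 0.72 (limma adjusted p = 0.0306), and its adjusted p was above the threshold, between 0.0534 and 0.0680, without AIMD replicate 2, 3 or 4 or vehicle replicate 4 or 6. Pts, Spr, Qdpr and Pcbd1, which encode the other enzymes that make or recycle the cofactor, had log2 fold changes of 0.17, -0.02, -0.32 and -0.18. Without vehicle replicate 8, Qdpr was lower in AIMD mice (-0.42, limma adjusted p = 0.0159).

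Ddc encodes aromatic L-amino acid decarboxylase, which turns 5-hydroxytryptophan into serotonin and also makes dopamine, and is found on chromosome 11 (minus strand) from 11814101 to 11898144. Its lowest, median and highest FPKM were 13.4, 20.1 and 25.9 in AIMD mice and 24.4, 31.8 and 44.4 in vehicle mice. Only the top 2 AIMD mice reached the range of the vehicle mice, and 6 of 8 vehicle mice were above every AIMD mouse. The means were 19.4 ± 5.10 (SD, n = 7) and 31.7 ± 6.66 (SD, n = 8), so that the vehicle mean was 1.64 times the AIMD mean. The log2 fold change of -0.71 (SE 0.17) passed the test (limma adjusted p = 0.00359), and it ranged from -0.79 to -0.63 with each mouse left out. Reads on Ddc numbered 498 or more in every mouse.

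Ddc was lower in AIMD mice within both clock clusters, with mean FPKM of 23.5 against 36.0 above a score of 0 and 16.3 against 27.4 below it. The libraries keep the strand, but whether the counting used it is not given in the sources used here, so reads of genes on the other strand that overlap Ddc (1700042O10Rik), Slc18a1 (Atp6v1b2 and Gm15716), Slc6a4 (Gm12343) and Htr3a (Gm32335) may be included. The 2 synthesis genes had estimates of opposite sign, and the one for Ddc passed the test. The difference between these 2 estimates was not tested.

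Slc18a1 encodes the vesicular monoamine transporter of endocrine cells, which fills granules with serotonin, and is found on chromosome 8 (minus strand) from 69037711 to 69089235. It was low, with 25 to 46 reads in AIMD mice and 2 to 20 in vehicle mice, and 4 AIMD mice and no vehicle mouse reached the FPKM of 0.5 that the filter asks for. The lowest, median and highest FPKM were 0.290, 0.532 and 0.732 in AIMD mice and 0.0560, 0.242 and 0.375 in vehicle mice. All AIMD mice except replicate 3 were above every vehicle mouse. The mean was 0.510 ± 0.139 (SD, n = 7) against 0.233 ± 0.0954 (SD, n = 8), or 2.19 times as high. The difference in mean log2(FPKM + 0.5) was 0.46 (two-sided exact permutation test, p = 0.00109, not adjusted). Without the filter, the adjusted p in limma was 0.00792. In limma voom on the recovered reads, over genes with at least 10 reads in all, it was 0.0122 with a log2 fold change of 1.08, in a fit added after the data were seen. Each of these fits gave the higher level to AIMD mice, and so did both clock clusters, with mean FPKM of 0.389 against 0.231 above a score of 0 and 0.600 against 0.234 below it.

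Slc18a2, which encodes the second vesicular monoamine transporter, known from neurons, mast cells and platelets, went the other way. Its FPKM was 0.219 to 0.542 in AIMD mice and 0.422 to 5.12 in vehicle mice, where replicate 8 was highest and the next was at 2.10. This is a log2 fold change of -1.12 (SE 0.30, limma adjusted p = 0.00764), and without vehicle replicate 8 it was -0.88 (limma adjusted p = 0.00411). Slc18a2 met the filter through 7 vehicle mice, where it was higher, and 2 AIMD mice. With no filter, the adjusted p in limma was 0.0211. Syt7, the granule calcium sensor, had a log2 fold change of 0.27 and did not pass (limma adjusted p = 0.368), and Sv2a and Sv2c, which encode vesicle glycoproteins, missed the filter. The difference in sign between Slc18a1 and Slc18a2 was not tested as a difference.

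Enteroendocrine markers were read beside Tph1 and Slc18a1, which these cells hold. Chga, the granule protein chromogranin A, had 12.04 ± 2.54 (SD, n = 7) FPKM in the AIMD group and 11.9 ± 3.14 (SD, n = 8) in vehicle mice, and its log2 fold change was 0.04 (SE 0.17). Chgb, the related chromogranin B, rose by 0.65 on the log2 scale (limma adjusted p = 0.0119). Of 7 markers, 4 were tested and Chgb was the 1 that passed. Tac1, also tested, had 2.17 ± 0.667 (SD, n = 7) FPKM in the AIMD group and 6.11 ± 5.77 (SD, n = 8) in vehicle mice. Its log2 fold change of -0.90 did not pass (limma adjusted p = 0.109). Tac1 passed as lower with the clock score as a covariate (limma adjusted p = 0.0431) and without vehicle replicate 3 (limma adjusted p = 0.0111). Without vehicle replicate 8 its log2 fold change was -0.62 and did not pass (limma adjusted p = 0.182). The highest vehicle FPKM of Tac1 was 19.1 with that mouse and 7.83 without it. The summed FPKM of all 7 was 24.6 to 37.5 in AIMD mice and 18.2 to 36.8 in vehicle mice, so the sums overlapped almost entirely. Insm1, a transcription factor of endocrine cells, missed the filter, with 0.252 to 0.665 in AIMD mice and 0 to 0.247 in vehicle mice. Its groups did not overlap, as was the case in either direction for 8.56% of tested genes, on 9 to 24 reads in AIMD mice and 0 to 6 in vehicle mice. In limma voom over genes with at least 10 reads, its log2 fold change was 1.52 (adjusted p = 0.00867). Lmx1a (1.38, adjusted p = 0.0613) and Fev (0.26, adjusted p = 0.740), the other markers that missed the filter, did not pass in that voom fit.

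Within each mouse, Tph1 was set against Chga to ask whether it moved relative to a marker of the same cells. The mean of log2 Tph1 minus log2 Chga was -3.01 ± 0.410 (SD, n = 7) in the AIMD group and -3.39 ± 0.327 (SD, n = 8) in vehicle mice. The difference of 0.38 did not pass (two-sided exact permutation test, p = 0.0696, or 0.0928 adjusted over 4 such contrasts). Without vehicle replicate 4 it was 0.47 with an adjusted p of 0.0478 (exact permutation test).

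Slc6a4 encodes the serotonin transporter SERT, which clears serotonin from the space around the epithelium, and is found on chromosome 11 (plus strand) from 76998603 to 77032340. Its lowest, median and highest FPKM were 0.456, 0.492 and 0.815 in AIMD mice and 0.324, 0.563 and 1.498 in vehicle mice. The AIMD mice lay inside the range of the vehicle mice, which ran from replicate 3 to replicate 8. The means were 0.577 ± 0.145 (SD, n = 7) and 0.672 ± 0.354 (SD, n = 8). The log2 fold change of -0.09 (SE 0.16, 95% interval -0.42 to 0.25) did not pass (limma adjusted p = 0.6997), and without vehicle replicate 8 it was 0.03. The clock clusters differed in sign, with mean FPKM of 0.526 in AIMD and 0.506 in vehicle mice above a score of 0, and 0.616 and 0.838 below it. The 95% interval includes changes of either sign, and Slc6a4 had only 11 to 50 reads per mouse.

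Against the mean of the epithelial markers Epcam, Krt8 and Cdh1 in the same mouse, log2 Slc6a4 was -9.27 ± 0.297 (SD, n = 7) in the AIMD group and -9.01 ± 0.349 (SD, n = 8) in vehicle mice. The difference of -0.26 did not pass (two-sided exact permutation test, p = 0.141). Log2 Tph1 minus log2 Slc6a4, the gene for synthesis against that for uptake, was 0.52 ± 0.423 (SD, n = 7) and 0.02 ± 0.591 (SD, n = 8), a difference of 0.51 (exact permutation test, p = 0.0693, adjusted 0.0928). It was 0.62 without AIMD replicate 7, with an adjusted p of 0.0406 (exact permutation test), and 0.32 without vehicle replicate 8.

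Among other transporters that can carry serotonin, Slc22a3 and Slc29a4, which encode low-affinity carriers, missed the filter and had mean FPKM of 0.379 and 0.108 in AIMD mice and 0.341 and 0.0793 in vehicle mice.

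Maoa encodes monoamine oxidase A, the form that prefers serotonin, and lies on the plus strand of the X chromosome, from 16619698 to 16687818. Its level was far above that of the other 7 genes, with 89 of the tested genes having a higher mean FPKM. The lowest, median and highest FPKM were 612, 714 and 815 in AIMD mice and 253, 380 and 488 in vehicle mice. Every AIMD mouse was above every vehicle mouse, as was the case in either direction for 8.56% of tested genes. The mean was 699 ± 77.4 (SD, n = 7) against 389 ± 81.2 (SD, n = 8), or 1.80 times as high. This is a log2 fold change of 0.87 (SE 0.15, limma adjusted p = 0.000299), with a two-sided exact permutation p of 0.000155, the smallest that 7 mice against 8 can give.

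The call for Maoa held with every mouse left out, at log2 fold changes from 0.78 without vehicle replicate 8 to 0.92. Within the clock clusters, mean FPKM were 719 against 371 above a score of 0 and 685 against 407 below it. Transcripts of other genes contain 3.98% of the 50-base windows of Maoa, and at 4665 reads or more per mouse counting error is small.

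Maob encodes monoamine oxidase B and is the neighbor of Maoa on the X chromosome, from 16709282 to 16817366 on the minus strand. The 3′ ends of both genes face each other, 21463 bases apart. Maob had FPKM of 14.6, 18.9 and 29.2 (lowest, median, highest) in AIMD mice and 20.97, 24.5 and 31.5 in vehicle mice. Of the AIMD mice, 5 were below every vehicle mouse, while AIMD replicate 1 was above all but 1 of them. The means were 20.2 ± 4.87 (SD, n = 7) and 25.2 ± 3.17 (SD, n = 8), giving a log2 fold change of -0.33 (SE 0.14, 95% interval -0.61 to -0.05) that did not pass (limma adjusted p = 0.0653). It passed without AIMD replicate 1 (-0.42, limma adjusted p = 0.0166), without vehicle replicate 5 (-0.37, limma adjusted p = 0.0498) and with the clock score as a covariate (limma adjusted p = 0.0434). Its mean was lower in AIMD mice in both clock clusters, at 22.5 against 26.2 and 18.5 against 24.1.

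The balance of the 2 oxidase genes was tested within each mouse. The FPKM of Maoa was 25.8 to 49.997 times that of Maob in AIMD mice, with a median of 33.5, and 10.7 to 23.3 times in vehicle mice, with a median of 15.02. No AIMD mouse reached into the range of the vehicle mice. The mean log2 ratio was 5.10 ± 0.345 (SD, n = 7) against 3.90 ± 0.371 (SD, n = 8), and the difference of 1.20 passed (two-sided exact permutation test, p = 0.000311, adjusted 0.00124 over 4 contrasts). Over the mice left out in turn, it ran from 1.11 to 1.28.

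**Figure D2:**
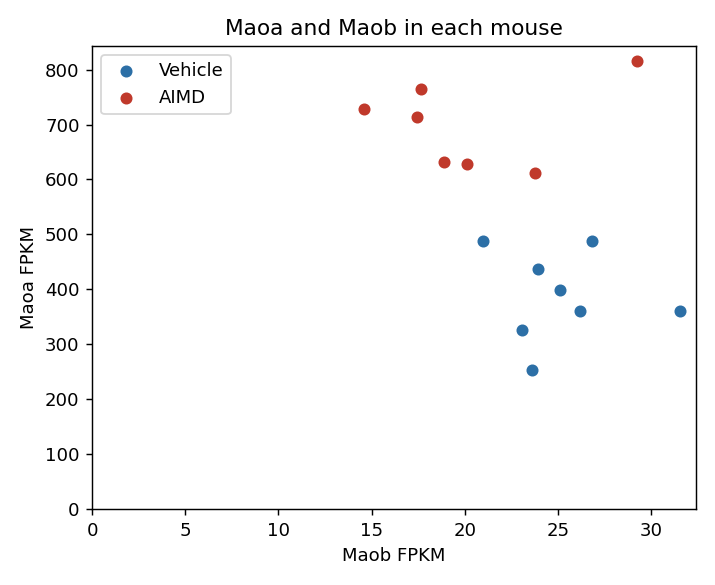
FPKM of Maoa (y axis) against FPKM of Maob (x axis), both linear from 0, with 1 point per mouse for 8 vehicle mice (blue) and 7 AIMD mice (red). The AIMD mice lie above the vehicle mice at 612 to 815 FPKM of Maoa, and 5 of them lie to the left of all vehicle mice in Maob.

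Monoamine oxidase turns serotonin into an aldehyde that aldehyde dehydrogenases oxidize. Of the 8 genes listed for this and other downstream steps, 5 were tested, 2 rose and 3 did not pass, again near the 36.0% called over all tested genes. Aldh1a1, a cytosolic aldehyde dehydrogenase also known for making retinoic acid, had 917 ± 147 (SD, n = 7) FPKM in the AIMD group and 547 ± 167 (SD, n = 8) in vehicle mice (log2 fold change 0.79, limma adjusted p = 0.00348). Aldh1b1, a mitochondrial aldehyde dehydrogenase, rose with a log2 fold change of 0.63 (limma adjusted p = 0.00615). Aldh2, the main mitochondrial form, had a log2 fold change of -0.41 and did not pass (limma adjusted p = 0.0996), but passed as lower with the clock score as a covariate (limma adjusted p = 0.0268) and without vehicle replicate 5 (limma adjusted p = 0.0376).

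Sult1a1, a sulfotransferase of phenols, had 367 ± 62.3 (SD, n = 7) FPKM in the AIMD group and 560 ± 190 (SD, n = 8) in vehicle mice and did not pass (limma adjusted p = 0.204). Vehicle replicate 8, at 130, lay below every AIMD mouse for Sult1a1. Without that mouse the log2 fold change was -0.76 (limma adjusted p = 0.000396). Aanat and Asmt, the genes that turn serotonin into melatonin, were listed at 0 in all 15 mice.

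Htr3a encodes subunit A of the 5-HT3 receptor, the one serotonin receptor that is an ion channel, known from nerve endings and enteric neurons, and is found on chromosome 9 (minus strand) from 48899213 to 48911099. Its lowest, median and highest FPKM were 0, 0.351 and 0.571 in AIMD mice and 0.184, 0.873 and 4.89 in vehicle mice. AIMD replicate 4 had 0 reads, which allows up to 0.171 FPKM at a limit of 3 reads. Of the vehicle mice, 6 were above every AIMD mouse, and replicates 3 and 5 lay among them. The means were 0.326 ± 0.177 (SD, n = 7) and 1.36 ± 1.53 (SD, n = 8), so that the vehicle mean was 4.18 times the AIMD mean. Without replicate 8 the vehicle mean was 0.861 ± 0.593 (SD, n = 7).

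The log2 fold change of Htr3a was -0.89 (SE 0.34), just past the threshold (limma adjusted p = 0.0497). It was above the threshold in 12 of the 15 fits that each left out 1 mouse, and the adjusted p in limma reached 0.0965 without AIMD replicate 4. Without vehicle replicate 8 the log2 fold change was -0.63 (limma adjusted p = 0.0578). The sign was the same in every one of these fits. Reads numbered 0 to 21 in AIMD mice and 2 to 45 in vehicle mice. Htr3a met the filter through 6 vehicle mice, where it was higher, and 1 AIMD mouse. With no filter, the adjusted p in limma was 0.104.

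Markers of enteric neurons and of smooth muscle were read beside Htr3a. Of 6 enteric neuron markers, 4 were tested, and Uchl1 (-2.03), Tubb3 (-2.27) and Snap25 (-1.03) passed as lower in AIMD mice, by log2 fold change, while Ret (-0.52) did not pass (limma adjusted p = 0.0840). Their summed FPKM was 2.97 to 5.40 in AIMD mice and 4.91 to 24.2 in 7 vehicle mice, with 78.5 in vehicle replicate 8. All 6 smooth muscle markers had a negative log2 fold change, but only 1 passed, Tagln at -1.17 (limma adjusted p = 0.00454). That is near the share of all tested genes called lower, 16.6%. The summed FPKM of the muscle markers was 211 to 805 in AIMD mice and 512 to 1359 in the vehicle mice other than replicate 8, which had 2988. Vehicle replicate 3 had the lowest sums of its group for both lists and an Htr3a FPKM of 0.257. Vehicle replicate 5 had the lowest Htr3a of its group, at 0.184, beside a neuron sum of 16.3 and a muscle sum of 868. No neuron marker was at 0 in all mice, and the part of neuron and muscle content in the values of Htr3a, Slc18a2 and Slc6a4 was not tested.

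**Figure D3:**
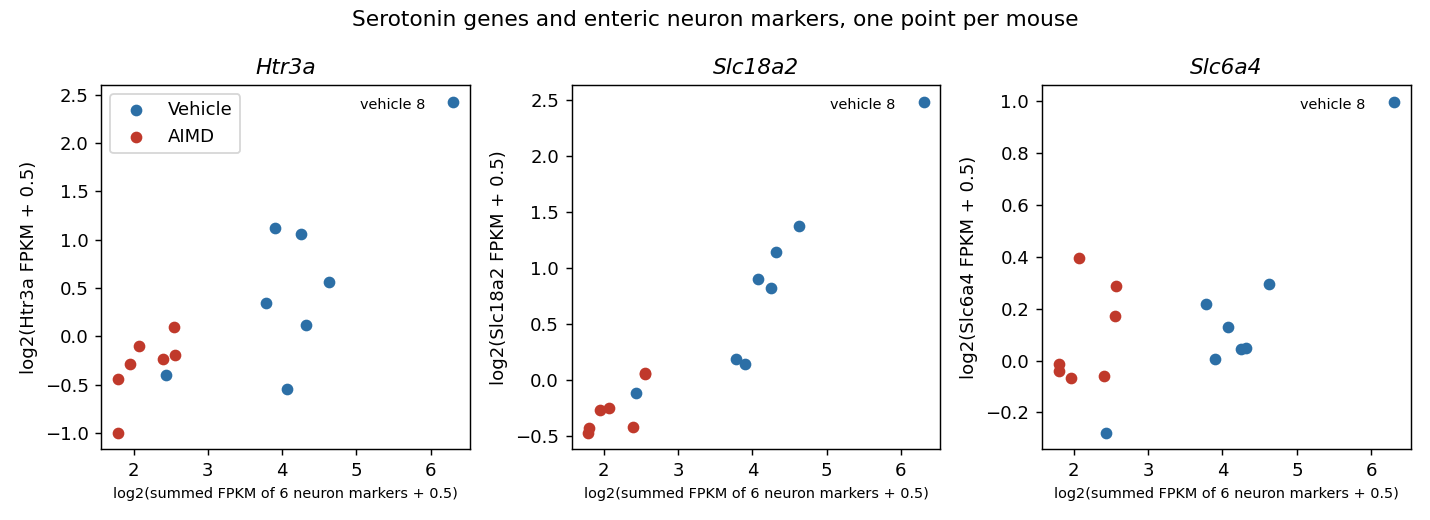
Log2(FPKM + 0.5) of Htr3a, Slc18a2 and Slc6a4 (y axes) against log2 of the summed FPKM of 6 enteric neuron markers + 0.5 (x axis), 1 point per mouse, for 8 vehicle mice (blue) and 7 AIMD mice (red). Vehicle replicate 8 is at the top right in all 3 panels, and the AIMD mice have sums of at most 5.40 FPKM.

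Htr4 encodes the 5-HT4 receptor, which raises cyclic AMP and is known from enteric neurons, muscle and epithelium, and is found on chromosome 18 (plus strand) from 62324204 to 62496577. The lowest, median and highest FPKM were 0.562, 0.776 and 1.13 in AIMD mice and 0.195, 0.290 and 0.516 in vehicle mice. Every AIMD mouse was above every vehicle mouse, where 8.56% of tested genes had no overlap in either direction. The mean was 0.785 ± 0.192 (SD, n = 7) against 0.325 ± 0.118 (SD, n = 8), or 2.42 times as high. The log2 difference of 0.64 (SE 0.13) passed the test (limma adjusted p = 0.00103) and ran from 0.58 to 0.68 over the mice left out. These levels stand on 22 to 61 reads in AIMD mice and 6 to 30 in vehicle mice, and the log2 fold change in limma voom on the recovered reads was 1.22 (adjusted p = 0.00071). Htr4 met the filter through all 7 AIMD mice, where it was higher, and 1 vehicle mouse. With no filter, the adjusted p in limma was 0.00162.

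Thus Htr4 and Htr3a had fold changes of opposite sign, which was not tested as a difference. Within the clock clusters, mean FPKM of Htr4 were 0.714 against 0.364 above a score of 0 and 0.838 against 0.285 below it. Those of Htr3a were 0.387 against 1.07 and 0.281 against 1.66.

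Of the 12 other receptor genes, Htr1a and Htr6 were listed at 0 in all 15 mice, and Htr2b was the 1 that was tested, with a log2 fold change of -0.37 (limma adjusted p = 0.316). Htr1d, which encodes an inhibitory receptor of nerve endings, missed the filter, with 0.0515 to 0.345 FPKM in AIMD mice and 0.210 to 1.70 in vehicle mice. In limma voom over genes with at least 10 reads, its log2 fold change was -1.79 (adjusted p = 0.00856). Htr3b, the second subunit of the 5-HT3 channel, had a mean of 0.0737 in AIMD mice and 0.222 in vehicle mice (log2 fold change -0.71 in voom, adjusted p = 0.423).

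Among 11 genes that set the fate or sense the surroundings of enterochromaffin cells, 2 were tested and both fell, where 16.6% of all tested genes were called lower. Nothing is read from these 2 calls beside this share, because the filter left out the other genes, among them Trpa1, given below. Adra2a, which encodes an adrenergic receptor, fell from 116 ± 11.3 (SD, n = 8) to 67.7 ± 15.9 (SD, n = 7) FPKM (log2 fold change -0.80, limma adjusted p = 0.000397). The highest AIMD mouse, at 95.8, just passed the lowest vehicle mouse, at 95.3. Ffar2, a receptor for short-chain fatty acids, had 0.524 ± 0.174 (SD, n = 7) FPKM in the AIMD group and 1.44 ± 0.784 (SD, n = 8) in vehicle mice (log2 fold change -0.84, limma adjusted p = 0.00976). Ffar2 met the filter through 7 vehicle mice, where it was higher, and 5 AIMD mice. Adra2a and Ffar2 are also expressed by other cells. Trpa1, an irritant-gated channel of enterochromaffin cells, missed the filter, with 0.319 to 1.22 FPKM in AIMD mice and 0.0687 to 0.405 in vehicle mice. In limma voom over genes with at least 10 reads, the log2 fold change of Trpa1 was 1.34 (adjusted p = 0.00987), on 19 to 69 reads in AIMD mice and 4 to 19 in vehicle mice. The other genes that missed the filter were not called in that voom fit. Neurog3, Pax4, Nkx2-2, Lmx1a, Fev, Piezo2 and Ffar3 ran from -0.18 for Pax4 to 1.38 for Lmx1a (voom adjusted p from 0.0613 to 0.948). Gpbar1 had too few reads to enter that fit.

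None of the 8 tested genes of tryptophan supply and diversion passed, against 36.0% of all tested genes called in either direction, with log2 fold changes from -0.62 for the amino acid transporter gene Slc7a8 to 0.56 for the tryptophan transporter gene Slc6a19. Unadjusted p was under 0.05 for 1 of them, Slc7a8, and limma voom on the recovered reads called 0. Of the genes of this list that missed the filter, Ido2, which encodes a second dioxygenase of tryptophan, was called lower in limma voom over genes with at least 10 reads (log2 fold change -1.78, adjusted p = 0.0385), at mean FPKM of 0.0241 in AIMD and 0.0720 in vehicle mice and at most 4 reads per mouse. Ido1, which diverts tryptophan to kynurenine, had 3.97 ± 2.55 (SD, n = 7) and 3.33 ± 1.56 (SD, n = 8) FPKM. Over all 7 pathway lists, 25 of 57 genes were tested, 4 rose, 3 fell and 18 did not pass, with a median log2 fold change of -0.02.

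**Figure D4:**
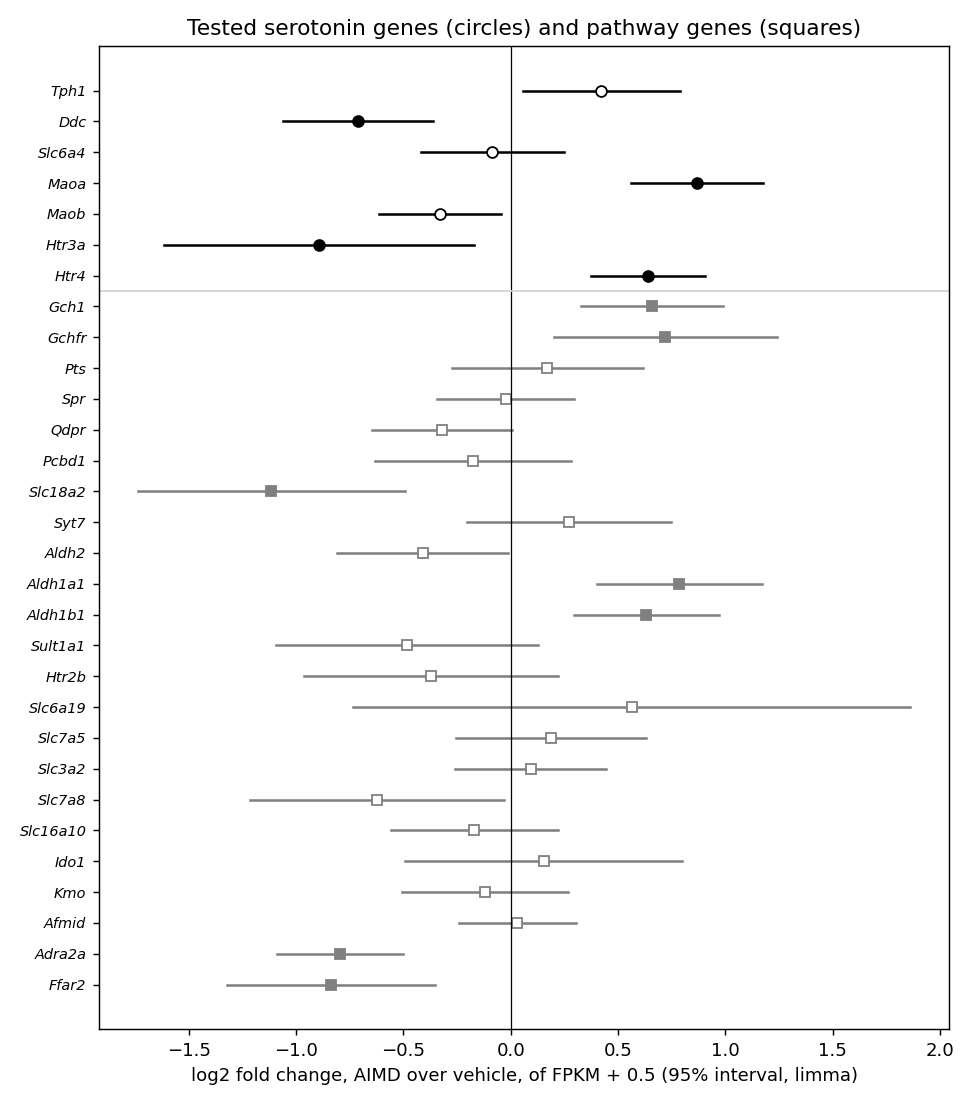
Log2 fold change of FPKM + 0.5, AIMD over vehicle (x axis), with the 95% interval from limma, for the 7 tested serotonin genes (circles, top) and tested genes of the pathway lists (squares). Filled symbols passed an adjusted p of 0.05, among them Maoa at 0.87 and Ddc at -0.71, and Slc18a1 is absent because it missed the filter.

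Other cell types were read from the marker lists. Of 6 epithelial markers, Krt8 (log2 fold change 0.69, limma adjusted p = 0.0428) and Vil1 (0.42, limma adjusted p = 0.0195) rose and 4 did not pass, and the call for Krt8 was lost in 10 of the 15 fits with 1 mouse left out. The 4 were Epcam (0.18), Cdx1 (0.44), Cdx2 (-0.08) and Cdh1 (-0.34, limma adjusted p = 0.0998). Cdh1 passed as lower without AIMD replicate 4 (limma adjusted p = 0.0243). Cdx1 passed as higher without vehicle replicate 2 (limma adjusted p = 0.0182) and with the clock score as a covariate (limma adjusted p = 0.0478). The summed epithelial FPKM was 2614 to 3639 in AIMD mice and 2405 to 2963 in vehicle mice, and its part in the values of Maoa, Ddc and Htr4 was not tested. Of 6 mast cell markers, whose cells can also make serotonin, 2 were tested and neither passed, with sums of 1.95 to 7.61 and 0.960 to 5.02 FPKM.

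The genes most like each tested serotonin gene were found as those with the highest Pearson r over the 15 mice, after centring on the treatment means, and as they were picked for that r they are a description. They share libraries and depth. For Tph1 they were Sirt2, Lace1 and Eci3, with Sirt2 at an r of 0.85 (rho 0.73). For Ddc they were Tsn, Bcap31 and Sptlc1, with Tsn at 0.95 (rho 0.94). For Slc6a4 they were Lrp11, Islr and Pcbp3, with Lrp11 at 0.94 (rho 0.78), or 0.84 without vehicle replicate 8 and AIMD replicate 6.

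For Maoa the most alike were Azgp1, Serpinb5 and Cyp2j6, with Azgp1 at 0.89 (rho 0.79), or 0.73 without vehicle replicates 8 and 5. For Maob they were Snrnp48, Disp1 and the clock gene Npas2, with Snrnp48 at 0.78 (rho 0.76). For Htr3a they were Ak1, Dmpk and Thy1, with Ak1 at 0.95 (rho 0.88), or 0.86 without vehicle replicates 8 and 5. For Htr4 they were AU041133, Stra6l and Gpam, with AU041133 at 0.84 (rho 0.76). Within the clock clusters of 7 and 8 mice, r of Npas2 with Maob was 0.94 and 0.33, and r of Tsn with Ddc was 0.77 and 0.99.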

How the data were processed

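Cecal poly-A RNA of 7 AIMD and 8 vehicle mice was sequenced from stranded libraries, and each mouse was assigned by its sample label. Per the submitters' processing notes, STAR, featureCounts, DESeq2 and GRCm38 were used, and the authors deposited FPKM per gene symbol and mouse. How counts became FPKM is not given in the sources used here.

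The values were scaled by size factors (median of ratios), and log2(FPKM + 0.5) was tested two-sided with limma 3.58.1 in R 4.3.3 (lmFit, then eBayes with a trend). A gene missing the filter, and ratios within a mouse, had exact permutation tests over all splits into 7 and 8 mice. Time of sacrifice, a factor in the study's own model, was not used, since the labels do not give it. Other steps used Python 3.11.15 (scipy 1.17.1, pandas 2.3.3, numpy 2.4.6, matplotlib 3.10.9).

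Reads were recovered from the steps of the FPKM for 24278 of 24279 genes above 0, within 0.02 of a whole read in each value. The annotated exon length gave whole reads for 68.1% of genes. Where it did not, a length close to the shortest that gives whole reads was taken. The reads given for such genes, among them Tph1, Htr3a and Htr4, are thus near the fewest that the values allow. For Tph1 the length taken was 3682 bases against 6172 in GENCODE M21, and for Htr4 4657 against 4908, so their FPKM per base of the full annotation would differ. Limits from counts cover counting error only, and reads without molecular identifiers are not independent molecules. limma and the recovery of reads were tested on simulated data.

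Genes named are the 8 serotonin genes, genes of 7 pathway, 5 marker and the clock lists, the 3 tested genes most like each serotonin gene (predicted-gene numbers and RIKEN clones left out), and genes that overlap them. The genes and lists were chosen with earlier results of these data known. Alternatives were other scalings, pseudocounts and filters, a minimum fold change, a replicate block, a clock-gene covariate, limma voom on recovered reads and each mouse left out. Voom over genes with at least 10 reads, and the split by clock score, were chosen after the data were seen. Promoters were matched by symbol for 4 of the 8 genes. Counts over the lists take in every listed gene, also those without values in the text or plots.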

Additional observations from a re-analysis of the deposited data

Results flagged for a closer look

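Within the groups, single mice stood apart from the rest, by a gap to the nearest mouse that was large for the range of the group (Dixon's test at the 95% level). This was so in 7 of 34 groups of values examined. Chance alone marks about 1 in 20 groups of normal values. That rate is not compared with 7 of 34, because FPKM need not be normal and the groups share values. The Slc6a4 value of vehicle replicate 8, for example, enters the group of Slc6a4 and those of its ratios. Vehicle replicate 8 accounted for 6 of the 7 groups. Its FPKM was 1.498 for Slc6a4 and 4.89 for Htr3a, each the highest of the 8 vehicle mice. Its log2 Slc6a4 against the mean of Epcam, Krt8 and Cdh1 was the highest of its group, at -8.27, and its log2 Tph1 minus log2 Slc6a4 was the lowest, at -1.31. Its summed FPKM was 78.5 for the enteric neuron markers and 2988 for the smooth muscle markers. It was also the least deep library. Vehicle replicate 2 stood apart for Tph1, with an FPKM of 1.33. The causes were not tested.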

How the results depend on the processing

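Maoa, Ddc, Htr4 and Slc18a1 kept their direction and their side of the threshold in all alternatives run for each. The clock score is centred within each treatment, so as a covariate it cannot move a fold change and alters only the p-value. It therefore does not adjust for a time of sacrifice that differs between the treatments. The log2 fold change of Slc6a4 turned to 0.031 without vehicle replicate 8, and ranged from -0.15 (without vehicle replicate 3) to 0.031 over the mice left out. The replicate block also drops vehicle replicate 8, so its fold changes equal those without that mouse and are not a separate estimate. Htr3a missed the threshold in 17 of 24 alternatives, with limma adjusted p from 0.0501 to 0.104. Of the 8 genes, 2 were called at a filter of FPKM 1 in 7 mice, which keeps fewer genes, 5 with the clock score and 3 with the block, beside 4. Calls over all genes were 3888, 4883 and 4646 under these settings, beside 4315. Requiring an absolute log2 fold change of at least 1 left 765 of the 4315. After quantile normalization, Slc6a4 against the epithelial markers passed, at -0.39 (exact permutation test, adjusted p = 0.0131). The cause was not tested.

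With each mouse left out, calls over all genes ranged from 3551 to 4638, calls among the 8 genes from 3 to 5 and calls in the pathway lists from 6 to 10. The within-mouse differences ranged from 1.11 to 1.28 for Maoa minus Maob, 0.29 to 0.47 for Tph1 minus Chga, -0.34 to -0.16 for Slc6a4 minus epithelium and 0.32 to 0.62 for Tph1 minus Slc6a4.

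The replicate numbers name different mice. Same-numbered mice had correlations of deviations from -0.35 to 0.43, with 2 of 7 over 0.1, and 1 AIMD mouse correlated best with its own number. With the replicate as a block, which drops vehicle replicate 8 for want of a partner, Maoa minus Maob was 1.12 with an adjusted p of 0.0625 from an exact sign-flip test, the smallest that 7 pairs and 4 contrasts allow for a single passing contrast.

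Low read counts limit Tph1, Slc18a1, Slc6a4, Htr3a and Htr4.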
